A study of Mus musculus with 29 samples.

Results

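Purinergic receptors sense nucleotides outside the cell. The 5 receptor genes followed here are P2ry12, P2ry13, P2ry6, P2rx4 and P2rx7, out of 27827 genes listed in any of the deposited tables, and they were taken by name. All 5 were listed in the tables of young brain, aged brain and blood. Levels are given as CPM, the summed counts of a gene over the cells of 1 type in 1 library, scaled to a common total of all genes.

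Adenosine triphosphate (ATP) released by injured cells opens the P2X receptors, which are cation channels, and its breakdown product adenosine diphosphate (ADP) and the nucleotide uridine diphosphate (UDP) bind P2Y receptors, which signal through G proteins. In microglia, the resident macrophages of brain tissue, P2Y12 and P2Y13 are ADP receptors coupled to Gi, and P2Y12 steers microglial processes towards injury. P2Y6 is a UDP receptor coupled to Gq that is known for triggering phagocytosis. P2X4 is an ATP-gated channel found largely on endosomes and lysosomes, and P2X7 opens at high ATP and is a known trigger of the NLRP3 inflammasome.

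The study profiled C57BL/6J mice by Drop-seq, a droplet method that counts the 3′ ends of transcripts in single cells, after transient occlusion of the middle cerebral artery (an experimental stroke) or sham surgery. Young mice were 8 to 10 weeks old and male, and gave 4 brain libraries each at day 2 after sham surgery, day 2 after stroke and day 14 after stroke. Aged mice were 17 to 20 months old and gave 2 sham libraries at day 2 (1 male, 1 female), 3 stroke libraries at day 2 (1 male, 2 female) and 1 stroke library at day 14 (female). Blood leukocytes came from young male mice, with 4 sham and 4 stroke libraries at day 2 and 3 stroke libraries at day 14. Each brain library pooled 4 to 5 hemispheres and was sorted for microglia, other leukocytes with high CD45, and endothelial cells; each blood library pooled 2 mice and was depleted of Ter-119+ red cells. Every group was prepared with Brilliant Blue G, which the labels call an antagonist of P2X7, and with actinomycin D, which blocks transcription; the brain preparations also held the NMDA receptor blocker AP-5. Day 14 has no sham group, so both stroke times are compared with the same day 2 sham libraries. The labels do not say that libraries of a group came from separate experiments, so p-values measure the spread between these libraries.

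The 29 libraries held 106977 cells (55268 from brain, 51709 from blood), with 1143 to 6328 cells and 819438 to 5855047 counts per library and a median of 321 to 1363 counts per cell. Cell types are those of the deposited annotation, whose codes are not spelled out; Mg is read here as microglia, MdC as monocyte-derived cells, BAM as border-associated macrophages, EC as endothelial cells, Gran as granulocytes and, in blood, Neu as neutrophils and Mo as monocytes. Markers went with these readings: all 8 microglial markers (among them Tmem119, Sall1 and Fcrls; P2ry12 was left out of the list) were detected in Mg of 11 of the 12 young brain libraries, and all 7 monocyte markers in MdC of all 12. The exception was Mg of replicate 3 of young stroke day 2. It held 58 cells. Its 8 microglial markers summed to 813 CPM against 15857 to 16529 CPM in the other 3 libraries of its group. Of the 8, 5 (Sall1, Gpr34, Olfml3, Fcrls and Sparc) were under 0.5 counts. Ly6c2 and Lyz2, which mark monocytes, stood at 385 and 3443 CPM. The monocyte markers as a list summed far lower there than in any MdC library. What these cells are was not tested. For the receptors called in microglia, folds against sham are given with and without this library, and calls of other purinergic genes are counted both ways. In 5 of the 12 young brain libraries (sham 1, day 2 stroke 1 and 2, day 14 stroke 1 and 2) the median share of mitochondrial counts per cell was 0.235 to 0.559%, against 1.67 to 3.38% in the other 7. Of 406 pairs of libraries, 231 shared a cell barcode, with at most 7 shared, or 0.169% of the smaller library.

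The receptors lie in 2 pairs and a single gene, with coordinates from RefSeq on GRCm38.p6, the assembly behind mm10. P2ry13 (chr3:59207892-59210882, 2 exons, ENSMUSG00000036362.2) and P2ry12 (chr3:59216271-59262985, up to 4 exons, ENSMUSG00000036353.13) lie on the minus strand 5388 bases apart. P2rx7 (chr5:122643927-122692336, up to 13 exons, ENSMUSG00000029468.17) and P2rx4 (chr5:122707518-122729739, up to 12 exons, ENSMUSG00000029470.15) lie on the plus strand 15181 bases apart. P2ry6 (chr7:100937630-100975498, up to 3 exons, ENSMUSG00000048779.5) lies on the minus strand of chromosome 7. Both P2ry12 and P2ry13 lie inside Med12l on the opposite strand, whose exons overlap those of P2ry12 but not those of P2ry13, and the RefSeq span of Camkk2 overlaps P2rx4. Whether the authors' counting used strand is not given in the sources used here, so reads of P2ry12 and Med12l where their exons overlap cannot be told apart.

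The promoter sequences of P2ry12 and P2ry13 are shown because both genes were high in microglia and fell there after stroke, and that of P2rx4 because it rose. RefSeq windows of 300 bases, 250 before and 50 after the start on GRCm38.p6, were matched for 4 of the 5 receptors. Capitals mark GAGGAA, the core letters bound by PU.1, the lineage factor of macrophages and microglia, which was searched on both strands (as TTCCTC on the other).
P2ry12 (chr3:59262936-59263235, minus strand): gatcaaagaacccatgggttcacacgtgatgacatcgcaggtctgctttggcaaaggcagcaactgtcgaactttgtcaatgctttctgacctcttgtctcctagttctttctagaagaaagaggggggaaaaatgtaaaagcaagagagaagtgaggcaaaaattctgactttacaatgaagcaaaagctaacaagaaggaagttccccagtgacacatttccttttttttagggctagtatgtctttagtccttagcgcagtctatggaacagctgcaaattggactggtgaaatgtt
P2ry13 (chr3:59210833-59211132, minus strand): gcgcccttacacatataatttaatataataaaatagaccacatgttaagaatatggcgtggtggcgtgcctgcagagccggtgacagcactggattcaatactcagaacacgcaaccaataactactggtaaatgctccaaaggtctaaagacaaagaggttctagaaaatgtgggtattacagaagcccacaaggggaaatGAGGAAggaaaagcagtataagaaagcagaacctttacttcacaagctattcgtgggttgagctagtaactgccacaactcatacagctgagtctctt
P2rx4 (chr5:122707294-122707593, plus strand): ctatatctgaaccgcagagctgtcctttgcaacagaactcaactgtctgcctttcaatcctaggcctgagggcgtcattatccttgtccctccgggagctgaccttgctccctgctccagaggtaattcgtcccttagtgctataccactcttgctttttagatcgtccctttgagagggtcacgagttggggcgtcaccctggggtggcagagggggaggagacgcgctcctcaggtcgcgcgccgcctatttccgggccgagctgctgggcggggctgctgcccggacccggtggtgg
GAGGAA was found once in the P2ry13 window, 48 bases before the start (position -48), and in neither of the other 2 printed. P2rx7 had 2 RefSeq windows, with 1 match in each, at positions 11 and 6 after the start. Of 32851 promoters of this length, 9289 (28.3%) hold GAGGAA or TTCCTC. The AP-1 letters TGANTCA, which stand in 2565 (7.81%) of the windows, were found in the first P2rx7 window and in no other window of these 4 genes. A match describes letters in a window and is not evidence of binding.

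Among the brain cell types of young mice the ADP receptor P2ry12 was by far highest in microglia. In young sham mice it averaged 3352 ± 208 CPM (SD, n = 4 libraries) in Mg. This was 24.1 times the next brain type, border-associated macrophages at 139 ± 47.2 CPM, and the libraries of the 2 types did not overlap. At day 14 after stroke Mg (963 ± 315 CPM) stood 17.6 times above the next brain type, granulocytes at 54.7 ± 42.1 CPM. Over the 12 young brain libraries endothelial cells, sorted in the same suspensions, held 0.0 counts of P2ry12 in 5880 cells. Counting error alone allows a level of up to 0.742 CPM (3 counts). Most deposited values are not whole, and what made them so is not covered by that bound. Dendritic cells (DC) reached at most 17.3 CPM. Since the annotation was made from the same expression values, differences between types are described and not tested.

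**Figure D1:**
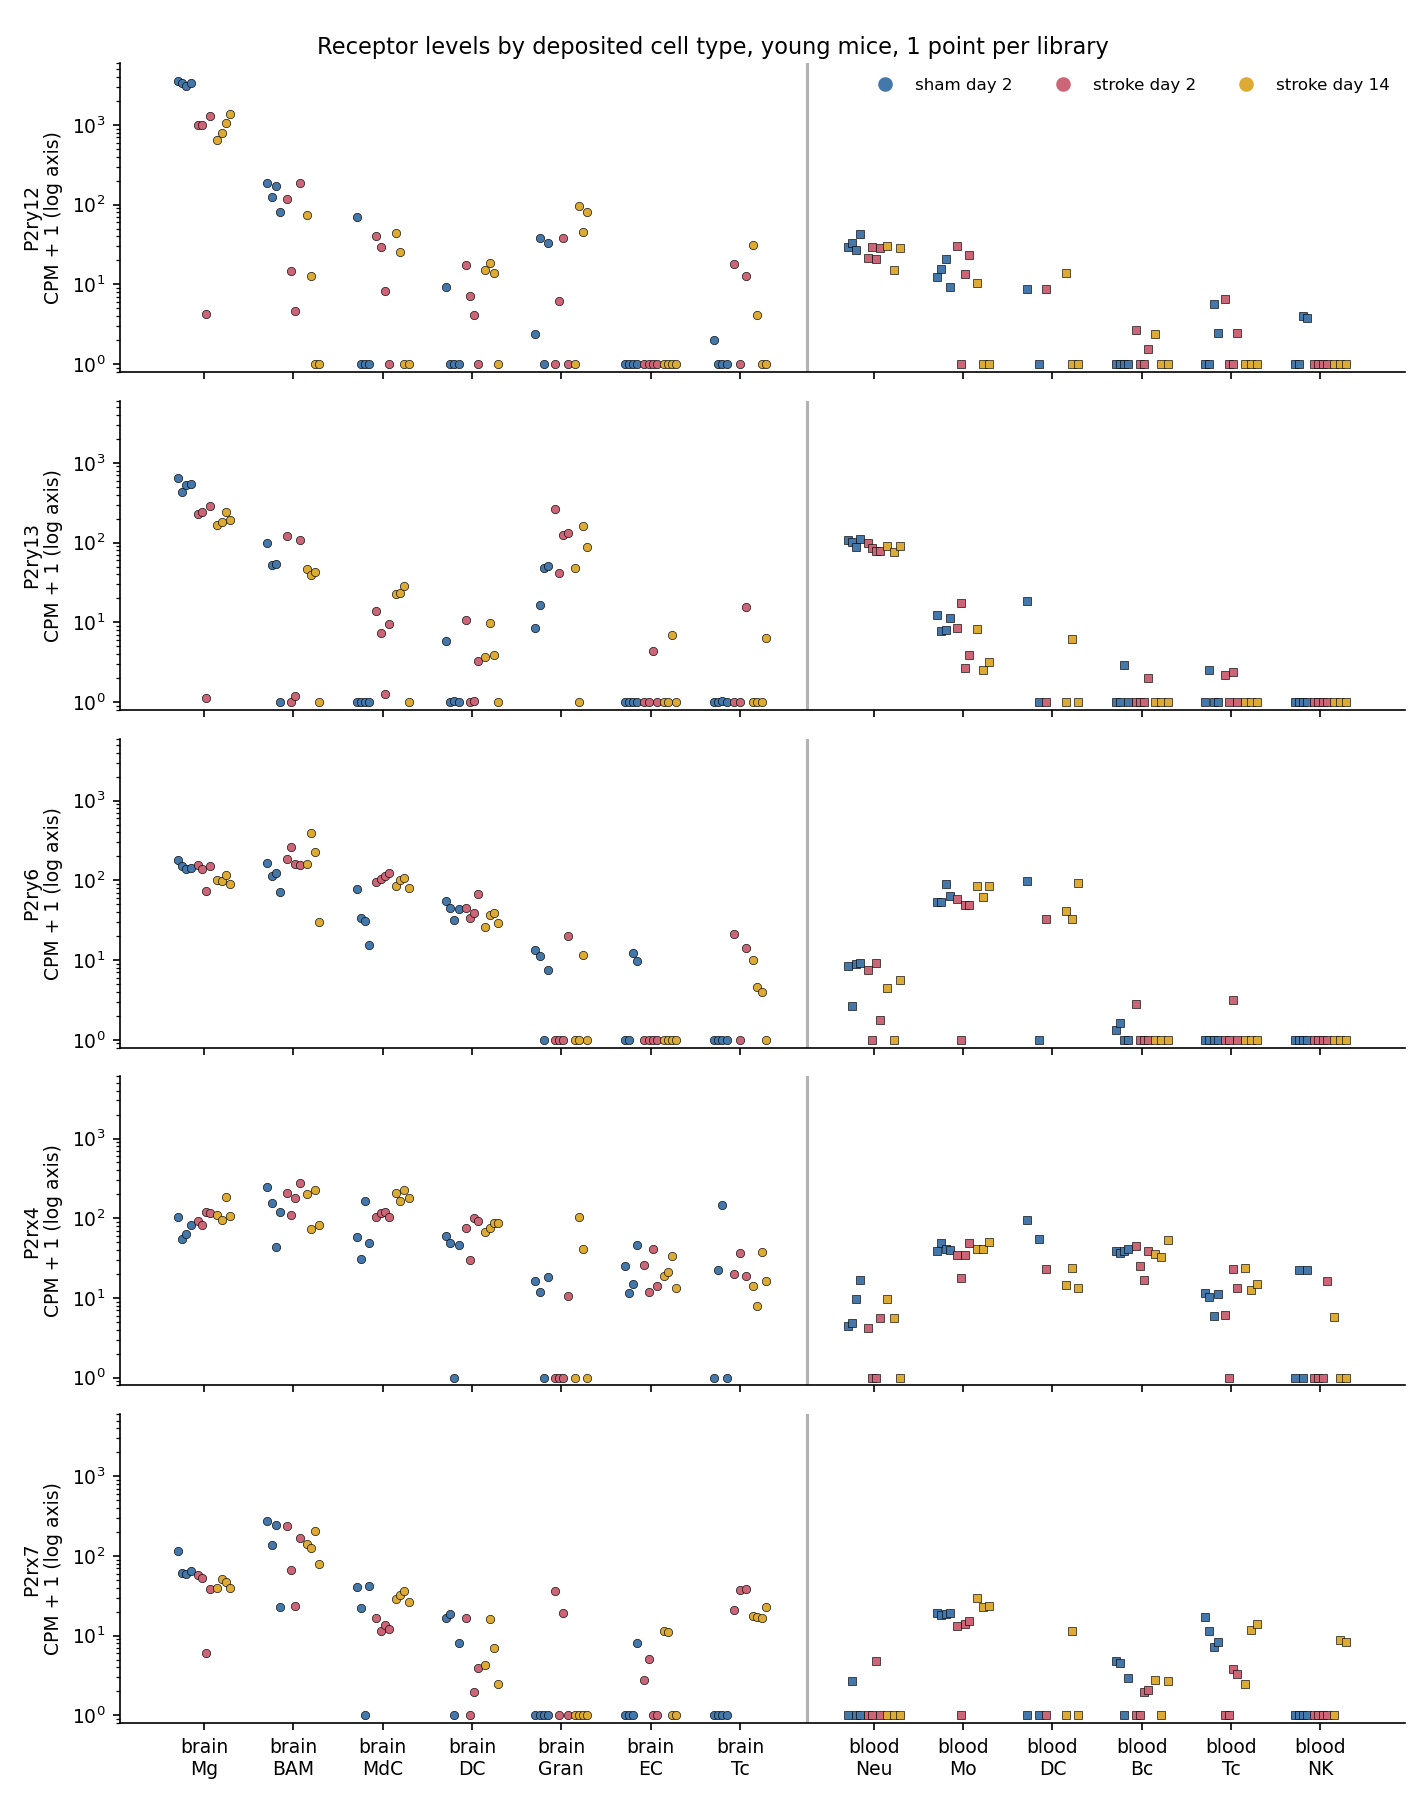
Level of each receptor (CPM + 1, log axis) by cell type, 1 point per library with at least 20 cells of the type; circles are brain and squares are blood. P2ry12 in Mg stands above every other brain type in sham mice, P2ry13 is also seen in blood Neu at 74.6 to 110 CPM, and P2rx4 and P2rx7 spread over Mg, BAM and MdC. Colours are the 3 young groups, and a level of 0 sits at the foot of the axis.

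P2ry12 fell in young microglia by day 2 after stroke. The 4 sham libraries stood at 3566, 3409, 3067 and 3366 CPM, and the 4 stroke libraries at 992, 1002, 3.25 and 1291 CPM, the third being the library set apart above. No stroke library reached the lowest sham library. The log2 fold change was -1.76 ± 0.61 (SE; edgeR quasi-likelihood test, Benjamini-Hochberg adjusted p = 0.0408), and without replicate 3 it was -1.42 ± 0.28 (adjusted p = 0.00392). Of the 5 receptors 2 passed the threshold of 0.05, both lower, where 31.4% of the 10145 genes tested did and 15.7% were lower (27.5% and 13.1% without replicate 3). The call rests on the sham and stroke libraries together: it was lost when any of the 4 sham libraries, or stroke replicate 1 or 2, was left out (adjusted p 0.0578 to 0.0938), with replicate 3 still in the fit. Within the 5 libraries of low mitochondrial share, only 1 of them sham, the fold was -1.64, and within the other 7 it was -1.82 (adjusted p = 0.0643). Those 7 hold replicates 3 and 4 as their day 2 stroke libraries, and without replicate 3 the fold was -0.94 (adjusted p = 0.091), from 1 stroke library whose spread is taken from the other groups.

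At day 14 the 4 libraries stood at 654, 785, 1047 and 1368 CPM, again all below every sham library. The fold against sham was -1.34 ± 0.60 with an adjusted p of 0.136 when the odd day 2 library shared the estimate of the spread, and -1.35 ± 0.25 with an adjusted p of 0.00459 without it. In the fit with all libraries 15.2% of genes were called (4.68% lower), and without replicate 3 14.4% (5.06% lower). With replicate 3 kept, P2ry12 was called in DESeq2 (-1.50, adjusted p = 0.0269) and by library size (-1.79, adjusted p = 0.0289). The call depends on that library and on the test and scaling. DESeq2 called 1986 of the 10145 genes there, and library size 3425. Within the low mitochondrial libraries, which hold 1 sham library, the fold was -1.82. Within the others it was -0.99 (adjusted p = 0.404), or -0.97 without replicate 3 of day 2. Between day 14 and day 2 the fold was 0.42 ± 0.59 (adjusted p = 0.754); none of the 5 receptors passed there in edgeR, 1 (P2rx4) at an unadjusted p under 0.05, and none in DESeq2, against 6.97% of all genes (3.48% higher).

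P2ry13, the neighbouring ADP receptor, also fell in microglia by day 2. Its sham libraries stood at 650, 427, 523 and 549 CPM in Mg, the day 2 libraries at 228, 240, 0.113 and 287 CPM, and the day 14 libraries at 166, 179, 239 and 190 CPM. Every stroke library lay below every sham library at both times. The fold was -1.09 ± 0.38 at day 2 (adjusted p = 0.0435) and -0.997 ± 0.37 at day 14 (adjusted p = 0.0819); without replicate 3 these were -0.89 ± 0.21 (adjusted p = 0.0109) and -1.01 ± 0.20 (adjusted p = 0.00579). With replicate 3 kept, the day 14 difference was called in DESeq2 (-1.16, adjusted p = 0.00117), by library size (-1.46, adjusted p = 0.00882) and with values rounded up (-1.01, adjusted p = 0.0255). The day 2 call, with replicate 3 kept, was lost without any 1 of sham 1 to 4, stroke day 2 replicate 1 or 2, or stroke day 14 replicate 1 (adjusted p 0.0529 to 0.123). Within the libraries of low mitochondrial share, which hold 1 sham library, the day 2 fold was -1.28. Within the others it was -0.94 (adjusted p = 0.157), or -0.38 without replicate 3, from 1 day 2 library. The day 14 folds were -1.42 in the low set and -0.74 in the others (adjusted p = 0.339), or -0.72 there without replicate 3.

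The UDP receptor P2ry6 was not called in microglia at either time. It stood at 182, 149, 138 and 142 CPM in sham, 156, 136, 73.0 and 151 CPM at day 2, and 101, 96.4, 116 and 88.2 CPM at day 14. The day 2 libraries other than replicate 3 overlapped the sham libraries, and all day 14 libraries lay below them. On the trimmed-mean (TMM) scale used for the test, the folds were 0.06 ± 0.22 at day 2 (adjusted p = 0.868; -0.10 by library size and -0.13 in DESeq2, so the sign depends on the scale) and -0.14 ± 0.21 at day 14 (adjusted p = 0.683). The day 14 value depends on that scale: scaled by library size alone, as CPM is, the fold was -0.60 (adjusted p = 0.0247), but there the median of all genes tested shifted from -0.04 to -0.49, and relative to that median P2ry6 stood at -0.10 under both scalings.

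Of the 2 channels, P2rx4 rose in microglia by day 14. Its sham libraries stood at 103, 54.5, 62.5 and 81.9 CPM, the day 2 libraries at 91.1, 81.9, 119 and 115 CPM, and the day 14 libraries at 110, 95.1, 186 and 107 CPM. Sham replicate 1 lay within the range of both stroke groups, and the other 3 sham libraries lay below the lowest stroke library, the highest of them level with stroke day 2 replicate 2. The fold was 0.57 ± 0.28 at day 2 (adjusted p = 0.126; 0.58 ± 0.29 and 0.155 without replicate 3) and 1.20 ± 0.26 at day 14 (adjusted p = 0.00817), where it was the 1 receptor called and 10.6% of all genes were called higher. Without replicate 3 of day 2 it was 1.20 ± 0.28 (adjusted p = 0.014, with 9.35% of genes called higher), and it was called whichever single library was left out (0.90 to 1.33, adjusted p 0.00709 to 0.0429). Scaled by library size the day 14 fold was 0.73 (adjusted p = 0.0429), and relative to the median of all genes it was 1.22 there and 1.25 on the TMM scale. The 2 sets of libraries gave different sizes: with a mitochondrial share above 1% the folds were 1.09 at day 2 (adjusted p = 0.0224) and 1.62 at day 14 (adjusted p = 0.000836), and with the lower share -0.04 (adjusted p = 0.942) and 0.49 (adjusted p = 0.363). In the set above 1% the day 2 libraries were replicates 3 and 4; without replicate 3 the folds were 1.21 (adjusted p = 0.0302, from 1 day 2 library) and 1.65 (adjusted p = 0.0069). The low set holds 1 sham library, replicate 1, which had the highest sham level.

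P2rx7, the target of the antagonist in the dissociation buffer, was not called in microglia. It stood at 114, 59.8, 59.2 and 64.1 CPM in sham, 57.5, 52.7, 5.08 and 38.0 CPM at day 2 and 38.3, 50.8, 45.8 and 38.3 CPM at day 14. All 8 stroke libraries lay below the lowest sham library in CPM, but on the TMM scale the folds were -0.49 ± 0.31 (adjusted p = 0.226) and -0.30 ± 0.29 (adjusted p = 0.496). Without replicate 3 no further call was made for P2rx7 or P2ry6.

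**Figure D2:**
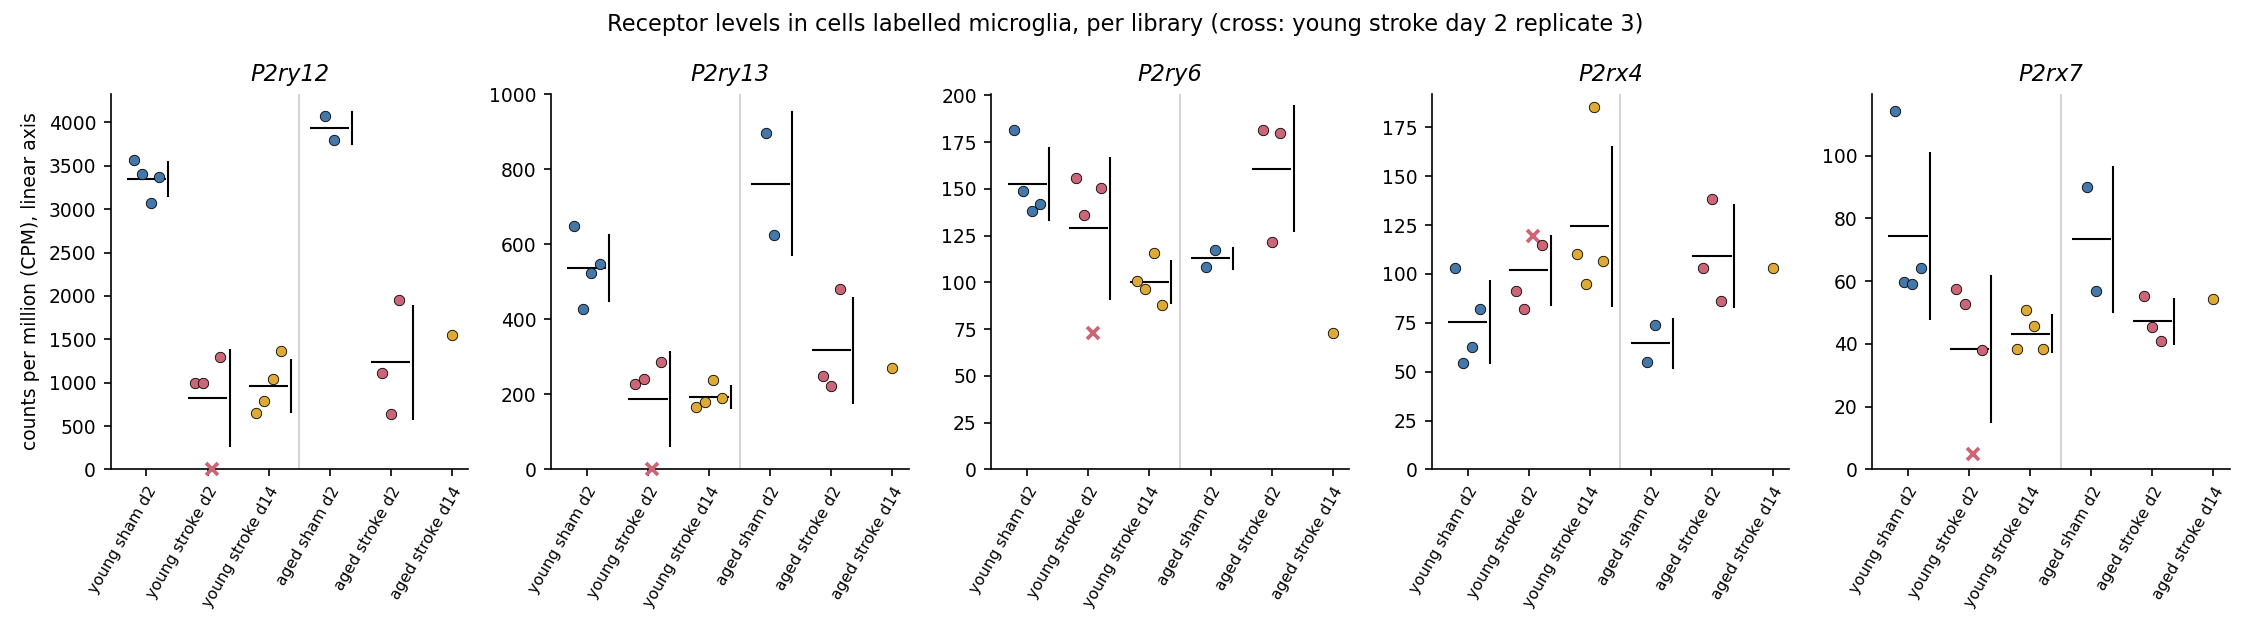
Level of each receptor in microglia (Mg, CPM) by group; dots are libraries, horizontal lines means, vertical lines 1 SD either side (none for the single aged day 14 library), and the cross is replicate 3 of young stroke day 2. P2ry12 and P2ry13 are lower in all young stroke libraries than in any young sham library, and P2rx4 is highest in replicate 3 of day 14 at 186 CPM.

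Markers of other cells moved with these microglial results. The 7 monocyte or macrophage markers summed to 235 to 397 CPM in Mg of the young sham libraries, 545 to 4292 CPM at day 2 and 2156 to 3178 CPM at day 14, while the 8 microglial markers summed to 17702 to 25214 CPM in sham, 15857 to 16529 CPM at day 2 without replicate 3 and 15271 to 19624 CPM at day 14. In MdC the monocyte markers summed to 26221 CPM or more. In sham replicate 4 and day 14 replicate 4 Ly6c2, Ccr2, Plac8 and Chil3 were under 0.5 counts in Mg. The sums in Mg of those libraries, within the ranges given, came from the other markers of the list. The part of these markers in the receptor results was not tested. Different sub-types also made up Mg: Mg1 held 5826 and Mg2 4043 of 10874 young sham cells, Mg4 held 1034 and Mg5 911 of 2693 day 2 cells, and Mg3 held 3415 of 5170 day 14 cells.

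Within Mg the sub-types differed in P2ry12 after stroke. In Mg1 the sham libraries stood at 3737, 3832, 3308 and 3405 CPM, the 3 day 2 libraries with at least 20 such cells at 3127, 3230 and 5589 CPM, and the 3 day 14 libraries at 2283, 5370 and 3280 CPM, so the groups overlapped. Mg3 stood at 1783 and 3009 CPM in sham (2 libraries), 1043, 1346 and 2173 CPM at day 2, and 581, 649, 929 and 941 CPM at day 14. All 4 day 14 Mg3 libraries lay below every Mg1 library of any group. Mg4 stood at 1481 to 2088 CPM in 3 sham libraries and at 494, 569, 3.53 and 550 CPM at day 2. P2ry13 showed the same order: Mg1 averaged 564 ± 84.0 CPM in sham, 634 ± 71.1 CPM at day 2 (n = 3) and 665 ± 268 CPM at day 14 (n = 3), while Mg3 averaged 163 ± 45.9 CPM at day 14 (n = 4) and Mg4 stood at 130, 138, 0.123 and 165 CPM at day 2, the third being replicate 3. The sub-types were clustered on these genes too, so this is a description with no test, and it does not separate a change within cells from a change in which cells make up a sub-type.

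P2ry6, P2rx4 and P2rx7 were detected across the microglial sub-types. P2ry6 averaged 169 ± 20.0 CPM in sham Mg1, 187 ± 39.8 CPM in day 2 Mg1 and 164 ± 20.6 CPM in day 14 Mg1, against 94.0 ± 20.1 CPM in day 14 Mg3. P2rx4 averaged 72.6 ± 24.3 CPM in sham Mg1, 67.9 to 149 CPM in day 2 Mg4 (130 CPM in replicate 3) and 131 ± 44.9 CPM in day 14 Mg3. P2rx7 averaged 74.1 ± 27.8 CPM in sham Mg1, 43.5 ± 8.10 CPM in day 2 Mg5 and 44.0 ± 12.02 CPM in day 14 Mg3, and libraries of these sub-types overlapped.

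**Figure D3:**
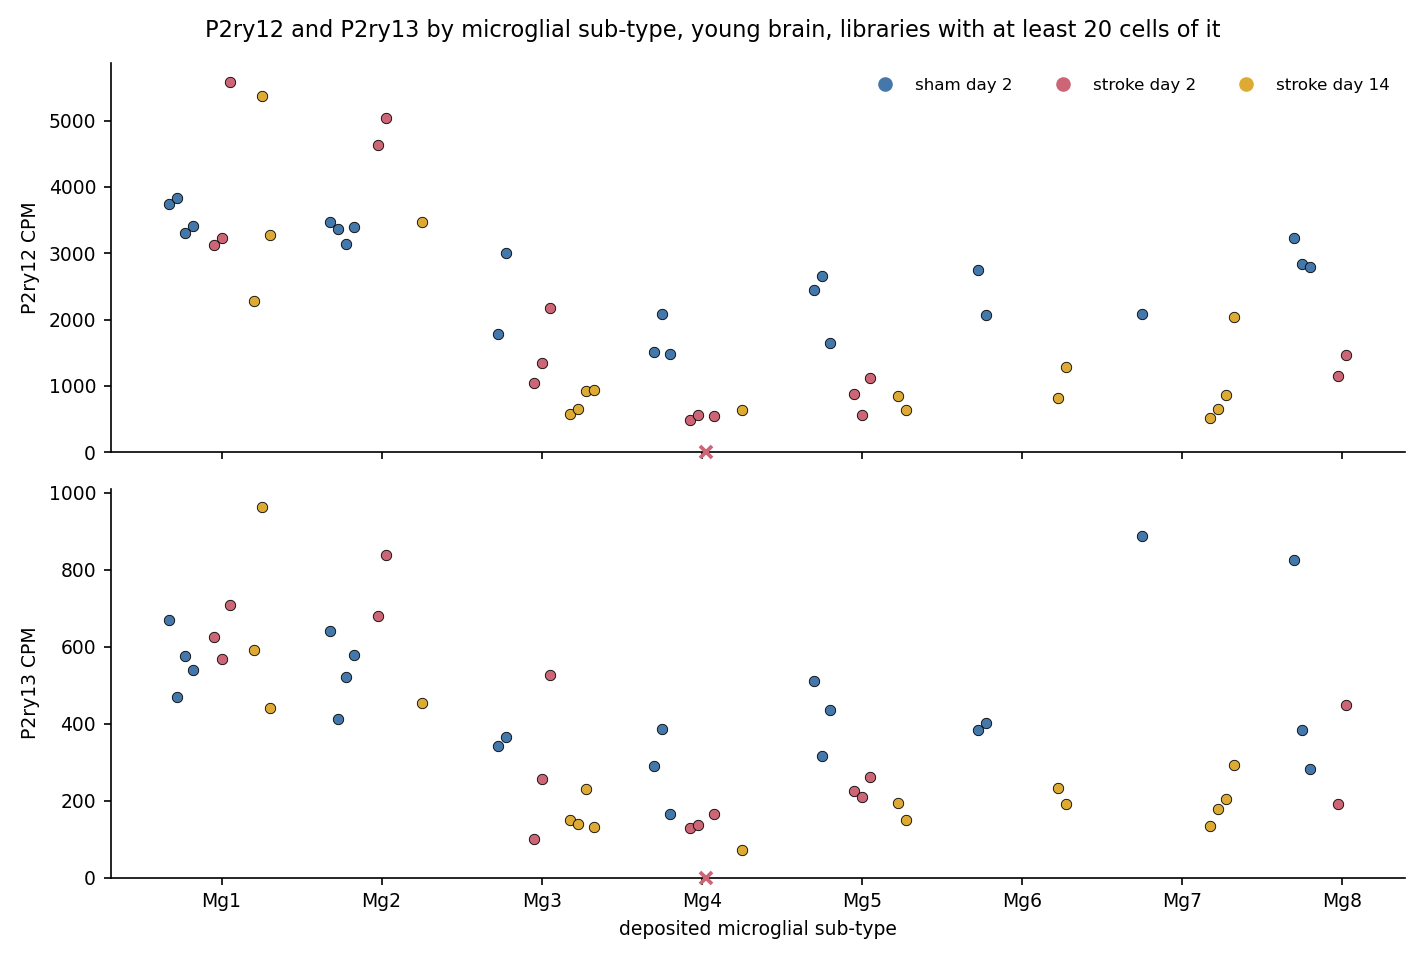
P2ry12 (top) and P2ry13 (bottom) in CPM by microglial sub-type in young brain, 1 dot per library with at least 20 cells of the sub-type, coloured by group; the cross is replicate 3 of stroke day 2. P2ry12 in Mg1 is at 2283 CPM or above in every library drawn, and in day 14 Mg3 it lies between 581 and 941 CPM.

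Monocyte-derived cells, which enter the brain after stroke, carried P2ry6 and P2rx4 and little of the ADP receptors. P2ry6 stood at 76.1, 32.5, 30.0 and 14.4 CPM in sham MdC, 94.5, 104, 113 and 123 CPM at day 2, and 84.6, 100, 106 and 78.2 CPM at day 14. All 8 stroke libraries lay above the highest sham library. The sham values rest on 43 to 99 cells and 8.53, 1.87, 1.21 and 0.264 expected counts per library, so 3 of the 4 are under 3 counts. The fold was 1.63 ± 0.43 at day 2 (adjusted p = 0.0353), the 1 receptor called, with 6.71% of the 8080 genes tested called and 5.66% called higher, and 1.35 ± 0.44 at day 14 (adjusted p = 0.094). Without sham replicate 1, the highest of the sham libraries, the folds were 2.60 (adjusted p = 0.0182) and 2.32 (adjusted p = 0.0378, called). The day 2 call was lost in DESeq2 (1.38, adjusted p = 0.0502), with library size alone (1.19, adjusted p = 0.112) and with only the compared groups. It was also lost without sham 2, 3 or 4, stroke day 2 replicate 3 or 4, or stroke day 14 replicate 1 (1.47 to 1.66, adjusted p 0.0543 to 0.106). Within the low mitochondrial libraries, which hold 1 sham library, the fold was 0.71, and within the others 2.64 (adjusted p = 0.0135).

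P2rx4 rose in monocyte-derived cells by day 14. Its sham libraries stood at 56.8, 29.5, 162 and 48.0 CPM, the day 2 libraries at 102, 115, 117 and 104 CPM, and the day 14 libraries at 205, 162, 223 and 178 CPM. Every day 14 library lay above every day 2 library, and sham replicate 3, at 6.53 expected counts, was level with the lowest of day 14. The fold against sham was 1.03 ± 0.37 at day 2 (adjusted p = 0.121) and 1.81 ± 0.37 at day 14 (adjusted p = 0.00898), again the 1 receptor called where 5.15% of genes were called and 4.21% called higher. Without sham replicate 1 (1.61, adjusted p = 0.0653) or sham replicate 2 (1.64, adjusted p = 0.053) the day 14 call was lost. Without sham replicate 3 the folds were 1.76 at day 2 (adjusted p = 0.0228, called) and 2.48 at day 14 (adjusted p = 0.00341). Within the 2 sets of libraries the day 14 fold was 2.20 (low mitochondrial share, with 1 sham library) and 1.57 (others, adjusted p = 0.0786).

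P2rx7 in monocyte-derived cells was lower at day 2 than at day 14 in CPM. It stood at 39.4, 20.998, 0 and 41.3 CPM in sham (1 of 4 libraries above 3 counts), 15.6, 10.4, 12.6 and 11.2 CPM at day 2 and 27.6, 31.0, 35.5 and 25.8 CPM at day 14, and the 2 stroke groups did not overlap. Day 14 against day 2 gave 1.21 ± 0.35 (adjusted p = 0.115) for P2rx7 and 0.78 ± 0.27 (adjusted p = 0.207) for P2rx4 in edgeR, which called none of the 5 receptors there (2 at an unadjusted p under 0.05) and 1.79% of all genes. DESeq2 called both (1.29, adjusted p = 0.00487, and 0.86, adjusted p = 0.00113), and it called 386 of the 8080 genes there. With the replicate number as a block, P2rx7 was called (1.21 ± 0.33, adjusted p = 0.0218) and P2rx4 was not (0.78 ± 0.25, adjusted p = 0.0601), and 469 of 8080 genes were called against 145 without the block. No label gives this pairing: it was taken from correlations in these same data. At both stroke times replicates 1 and 2 are the libraries of low mitochondrial share, so pairing and that split cannot be told apart. The block also covered the sham libraries, which the number was not taken to pair.

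The MdC folds against sham are set against a median of all genes that was itself 0.29 at day 2 and 0.28 at day 14 on the TMM scale, and -0.13 and -0.11 by library size. For day 14 against day 2 it was 0.04 and 0.07. Relative to that median P2ry6 at day 2 was 1.34 (TMM) and 1.33 (library size), and P2rx4 at day 14 was 1.53 and 1.51. Different sub-types made up MdC: MdC3 held 243 of 318 sham cells, MdC1 held 2267 and MdC2 2082 of 7225 day 2 cells, and MdC6 was the largest sub-type at day 14 with 985 of 2898 cells. In MdC3 alone P2ry6 averaged 42.0 ± 16.9 CPM in sham, 51.4 ± 16.1 CPM at day 2 and 84.7 ± 41.3 CPM at day 14 (n = 4 each), and P2rx4 34.6 ± 49.0, 91.3 ± 30.7 and 110 ± 58.8 CPM. In MdC6 P2rx4 averaged 248 ± 47.4 CPM at day 14 (n = 4) and 194 ± 56.6 CPM at day 2 (n = 3), and P2ry6 at day 2 averaged 122 ± 17.7 CPM in MdC1. Microglial markers in MdC summed to 45.9 to 517 CPM in sham, 270 to 800 CPM at day 2 and 291 to 2242 CPM at day 14; their part in the result was not tested.

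The ADP receptors were low in young MdC. P2ry12 stood at 68.9 CPM in sham replicate 1 and under 0.5 counts in the other 3, at 39.5, 28.1, 7.23 CPM and under 0.5 counts at day 2, and at 43.4, 24.5 CPM and under 0.5 counts in the other 2 at day 14. All but 1 of the libraries with a detected level were those of low mitochondrial share. P2ry13 was under 0.5 counts in all 4 sham libraries and stood at 12.8, 6.28, 0.276 and 8.57 CPM at day 2 and at 21.8, 22.004, 27.6 CPM and under 0.5 counts at day 14. Summed over the group it was at 21.3 CPM at day 14, at least 1.62-fold higher than the sham floor of 13.1 CPM (3 counts over the group), and edgeR did not call it (unadjusted p = 0.0747, adjusted p = 0.366; at day 2 unadjusted p = 0.224, adjusted p = 0.55).

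**Figure D4:**
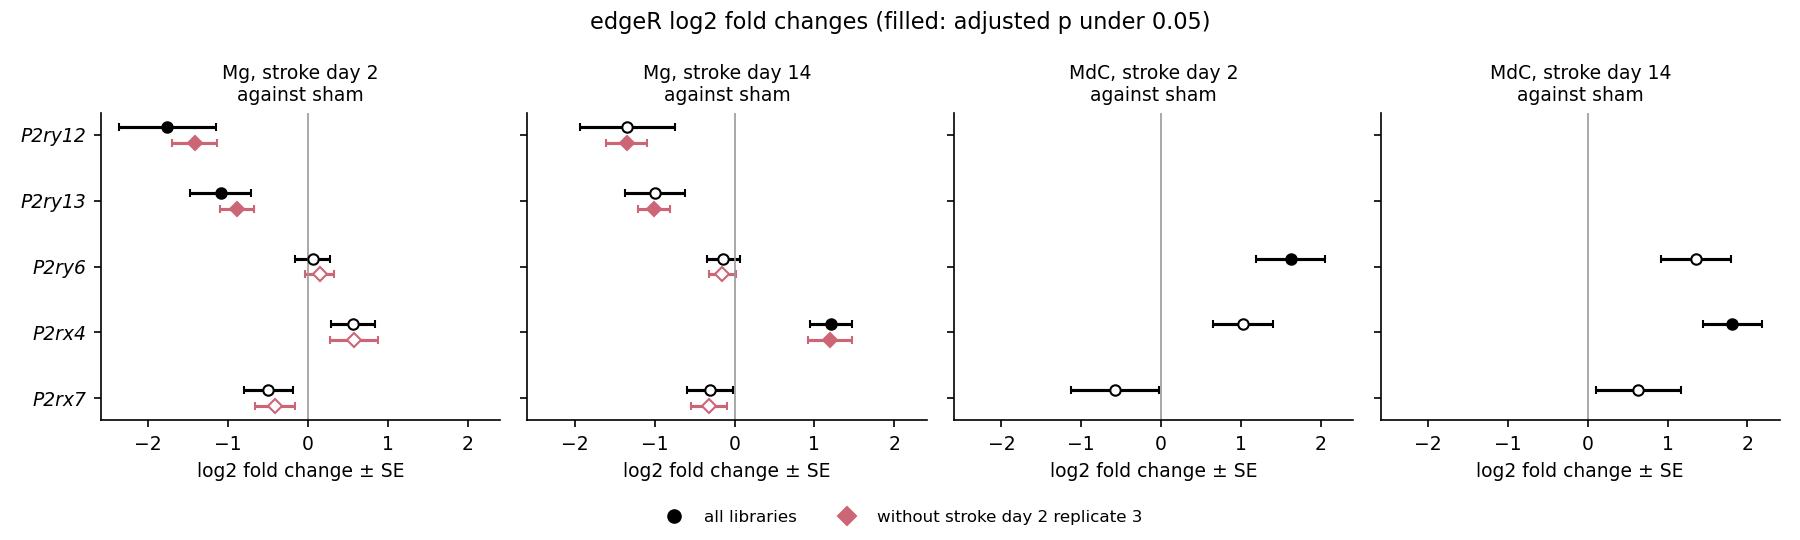
Log2 fold change with its SE for the receptors in microglia (Mg) and monocyte-derived cells (MdC) at day 2 and day 14 against sham; black circles use all libraries, pink diamonds leave out replicate 3 of stroke day 2, and filled symbols have an adjusted p under 0.05. P2ry12 and P2ry13 are not drawn in MdC, where no sham library held a detected level of P2ry13 and most held none of P2ry12. In Mg at day 14 these 2 genes are filled only without that library.

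Border-associated macrophages, which line the vessels and membranes of the brain, held all 5 receptors. In sham mice they stood at 278, 135, 243 and 22.2 CPM for P2rx7 and at 247, 152, 43.0 and 120 CPM for P2rx4. At day 2 P2rx7 was 238, 65.4, 22.8 and 167 CPM and at day 14 142, 126, 206 and 78.7 CPM, wide ranges that overlapped in every group. P2ry6 stood at 163, 111, 125 and 70.5 CPM in sham, 187, 265, 157 and 157 CPM at day 2 and 158, 397, 229 and 28.9 CPM at day 14. The 3 receptors with enough counts (P2ry6, P2rx4, P2rx7) had folds of 0.41, 0.53 and -0.50 at day 2 (adjusted p 0.453 to 0.592) and 0.60, 0.30 and -0.34 at day 14 (adjusted p 0.898 to 0.973). None was called by edgeR or DESeq2 and none had an unadjusted p under 0.05, where 2.67% and 0.0762% of 1313 genes were called. The libraries held 20 to 282 BAM cells.

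Among border macrophages the receptors split by sub-type. In sham libraries BAM1 averaged 338 ± 132 CPM of P2rx7 and 251 ± 70.8 CPM of P2ry12 (n = 3, 267 cells), while BAM2 averaged 16.5 ± 22.8 CPM of P2rx7 and held under 0.5 counts of P2ry12 in 202 cells. P2ry6 was 193 ± 51.6 CPM in BAM1 and 39.6 ± 29.4 CPM in BAM2. P2rx4 overlapped between them, at 190 ± 122 and 68.5 ± 57.0 CPM. BAM3 resembled BAM1, with 251 ± 70.2 CPM of P2rx7 and 172 ± 39.0 CPM of P2ry12. Microglial markers summed to 168 to 3123 CPM in sham BAM, and P2ry12 per 1000 counts of those markers was 63.0 in BAM, 103 in Mg and 22.6 in MdC over the young libraries; their part in the BAM level was not tested.

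**Figure D5:**
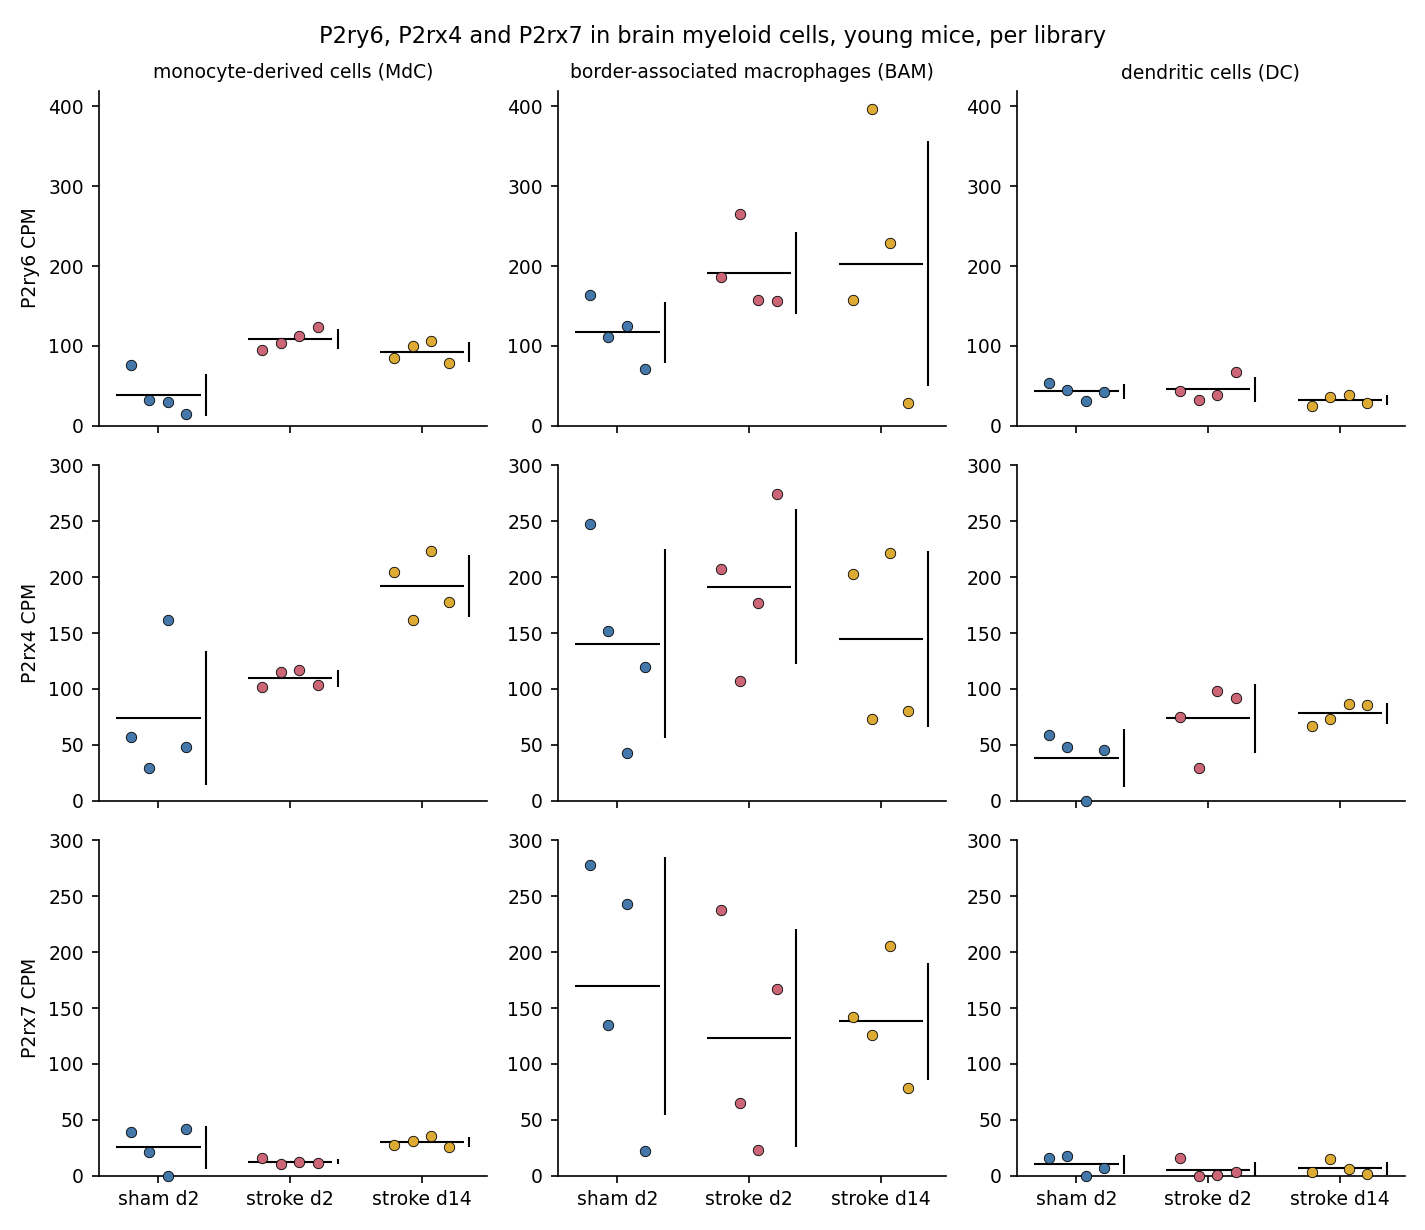
P2ry6, P2rx4 and P2rx7 (rows, CPM) in monocyte-derived cells, border-associated macrophages and dendritic cells of young brain (columns) by group; dots are libraries with at least 20 cells, horizontal lines means and vertical lines 1 SD either side. P2rx4 in MdC lies between 162 and 223 CPM at day 14, above the 102 to 117 CPM of day 2.

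The order of the cell types differed by receptor. For P2ry6 in sham brain Mg (153 ± 19.8 CPM) and BAM (117 ± 38.2 CPM) overlapped, and both lay above dendritic cells (42.9 ± 9.26 CPM); Mg also lay above every MdC library (38.2 ± 26.5 CPM). At day 14 BAM (203 ± 153 CPM), Mg (100 ± 11.7 CPM) and MdC (92.3 ± 13.1 CPM) overlapped. For P2rx4 BAM, Mg and MdC overlapped at all 3 stages, with MdC first at day 14 (192 ± 27.4 CPM), and at day 14 dendritic cells (78.0 ± 9.55 CPM) lay below Mg without overlap. For P2rx7 at day 14 BAM (138 ± 52.4 CPM), Mg (43.3 ± 6.13 CPM), MdC (30.0 ± 4.26 CPM) and T cells (17.6 ± 2.90 CPM) followed each other with no overlap between neighbours. Dendritic cells were tested for P2ry6 and P2rx4: P2rx4 gave 0.74 ± 0.50 at day 2 (adjusted p = 0.544) and 0.83 ± 0.49 at day 14 (adjusted p = 0.598), and neither gene was called in edgeR or DESeq2 or had an unadjusted p under 0.05, where 1.01% and 1.53% of genes were called (0.893% for day 14 against day 2).

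In blood both ADP receptors appeared in neutrophils, and P2ry12 also in monocytes. P2ry13 stood at 107, 100.4, 86.6 and 110 CPM in sham Neu, 96.6, 85.2, 78.1 and 77.3 CPM at day 2 and 90.2, 74.6 and 89.1 CPM at day 14, overlapping between groups. Sham blood monocytes stood at 8.76 ± 2.31 CPM (n = 4), and none of their libraries reached the lowest neutrophil library. P2ry12 in Neu stood at 25.7 to 41.4 CPM in sham, 19.6 to 28.2 CPM at day 2 and 14.3 to 29.3 CPM at day 14. At day 14 against sham the folds were -0.60 ± 0.22 for P2ry13 (unadjusted p = 0.015, adjusted p = 0.122) and -0.73 ± 0.33 for P2ry12 (unadjusted p = 0.0391, adjusted p = 0.217), neither past the threshold, where 5.95% of genes were called and 3.8% called lower (4.71% for day 14 against day 2). At day 2 P2ry13 gave -0.24 ± 0.19 (adjusted p = 0.997), and edgeR called 0.0% of genes. Platelet markers in Neu summed to at most 15.02 CPM, against 33467 CPM in the 1 library with 20 or more cells coded UC.

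Blood monocytes held P2ry6, P2rx4, P2rx7 and P2ry12, with 33.6 counts of P2ry12 at day 2 against 19.7 of P2rx7. P2ry6 stood at 52.0, 52.9, 90.3 and 62.2 CPM in sham Mo, 57.2, 0, 48.2 and 47.6 CPM at day 2 and 84.7, 60.01 and 85.1 CPM at day 14. P2rx4 ranged over 38.3 to 47.2 CPM in sham, 17.0 to 47.9 CPM at day 2 and 40.2 to 49.8 CPM at day 14. P2rx7 stood at 17.3 to 18.5 CPM in sham, 0 to 14.3 CPM at day 2 and 21.99 to 28.9 CPM at day 14, groups that did not overlap. Its fold at day 14 against day 2 was 0.97 ± 0.44 (unadjusted p = 0.0421, adjusted p = 0.617), with 0.537% of all genes called. P2ry12 at day 14 against day 2 gave -2.63 ± 0.91 (unadjusted p = 0.0105, adjusted p = 0.348) from 4.8 counts at day 14 and 33.6 at day 2. Leaving out single libraries moved it from -6.26 (without stroke day 14 replicate 1) to -1.81 (without stroke day 14 replicate 2), with adjusted p 0.108 to 0.858. With no filter on low counts this P2ry12 difference was called (-2.62, adjusted p = 0.0289). With the filter, no receptor was called in blood neutrophils or monocytes in edgeR or DESeq2, or in B cells in edgeR, at either time. B cells were tested for P2rx4 alone (35.2 to 40.4 CPM in sham), with folds of -0.31 ± 0.30 at day 2 and 0.09 ± 0.29 at day 14 (adjusted p = 1 for both); edgeR called 0.0% of genes in B cells at day 2 and 0.0114% at day 14, against sham and against day 2 alike.

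In aged microglia at day 2 P2ry12 and P2ry13 had lower and P2rx4 higher levels after stroke, as in young ones, without reaching the threshold. P2ry12 stood at 4070 (male) and 3792 (female) CPM in aged sham and at 1117 (male), 641 and 1949 (female) CPM after stroke, with 1548 CPM in the day 14 library. P2ry13 stood at 898 and 626 CPM in aged sham, 248.7, 223 and 481 CPM at day 2 and 270 CPM at day 14. All stroke libraries lay below both sham libraries for these 2 genes. In the fit with the young day 2 libraries the folds of aged stroke against aged sham were -1.61 ± 0.75 for P2ry12 (adjusted p = 0.303), -1.22 ± 0.52 for P2ry13 (adjusted p = 0.255) and 0.84 ± 0.36 for P2rx4 (adjusted p = 0.25). None of 5 was called by edgeR (3 at an unadjusted p under 0.05, with 2.3% of 11096 genes called). DESeq2 called 1, P2ry13 (-1.40, adjusted p = 0.0407), and 466 of the 11096 genes. Without replicate 3 of young stroke day 2 P2ry12 was called (-1.62 ± 0.37, adjusted p = 0.0334; 3.23% of genes called).

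P2rx4 in aged microglia stood at 55.2 and 73.7 CPM in sham, 103, 138 and 85.9 CPM at day 2 and 103 CPM at day 14. P2ry6 stood at 109 and 117 CPM in sham, 181, 122 and 180 CPM at day 2 and 72.8 CPM at day 14. P2rx7 stood at 90.0 and 56.7 CPM, 55.4, 45.5 and 40.8 CPM, and 54.4 CPM. The difference between ages in the response was tested directly as an interaction: it was 0.08 ± 0.96 for P2ry12, -0.19 ± 0.67 for P2ry13 and 0.22 ± 0.44 for P2rx4, and in microglia no receptor was called for it, for aged against young sham or for aged against young stroke in edgeR, none at an unadjusted p under 0.05 (0.0%, 0.018% and 0.0% of genes called). These errors leave room for large differences between ages. Age is also mixed with sex in these comparisons, since every young library is male and the aged ones are of both sexes. Aged MdC held no P2ry6 counts in either sham library and 61.2, 66.8 and 96.4 CPM at day 2; summed over the group this was at least 1.69-fold higher than the sham floor of 46.2 CPM, and edgeR did not call it (unadjusted p = 0.00136, adjusted p = 0.0506). P2ry6 in MdC was not called for aged against young sham (unadjusted p = 0.0171, adjusted p = 0.684) or for the interaction (unadjusted p = 0.0394, adjusted p = 0.823). P2ry12 in aged MdC stood at 176 and 74.1 CPM in sham (33 and 52 cells, 5.03 and 2.69 counts), 45.8, 19.4 and 23.2 CPM at day 2 and 34.6 CPM at day 14. P2rx4 in aged MdC went from 34.9 and 27.2 CPM in sham to 83.4, 109 and 134 CPM, a fold of 2.48 ± 0.76 (adjusted p = 0.0947, with 2.56% of genes called). The male aged sham library also held P2ry12 in T cells (475 CPM, 83 cells), B cells (422 CPM, 37 cells) and NK cells (552 CPM, 20 cells) but under 0.5 counts in 585 endothelial cells, while the female library held under 0.5 counts in T cells.

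The other genes of purinergic signalling were followed in 8 lists of 48 genes. In microglia at day 2 enzymes of nucleotide and adenosine metabolism had 3 genes tested of 10, with 2 called higher and 1 lower (median fold 1.75, against -0.05 for all genes), where 31.4% of all genes were called at day 2 and 15.2% at day 14. The 1 lower was Entpd1, the ectonucleotidase CD39 that cleaves ATP and ADP: it stood at 670, 610, 585 and 595 CPM in sham, 163, 167, 25.3 and 180 CPM at day 2 and 134, 156, 220 and 276 CPM at day 14. Entpd1 was lower in every stroke library than in any sham library, and fell with a log2 fold change of -1.80 at day 2 (adjusted p = 0.0011) and -1.19 at day 14 (adjusted p = 0.0163), and also in aged microglia (-1.70, adjusted p = 0.03). The 2 higher, Adk (2.21, adjusted p = 0.00212), the kinase that turns adenosine into AMP, and Enpp1 (1.75, adjusted p = 0.00657), an ectoenzyme that hydrolyses ATP, were under 20 CPM on average, outside the rule for named genes, and are named after their values were seen. Among 6 other genes named as P2Y receptors 1 was tested, P2ry10b, which was called lower (-0.88, adjusted p = 0.0332, and -1.07 at day 14, adjusted p = 0.0174). It is listed by its name, and whether its product binds a nucleotide was not tested.

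Of 5 other P2X receptors 1 was tested in microglia, P2rx1, which was not called in edgeR (-0.11 at day 2, adjusted p = 0.908, and -1.47 at day 14, unadjusted p = 0.0221, adjusted p = 0.0911). Of 4 adenosine receptors 1 was tested in microglia, Adora3, which was not called in edgeR (-0.74 at day 2, unadjusted p = 0.0301, adjusted p = 0.0798, and -0.40 at day 14, adjusted p = 0.359). Adora1, named after its values were seen, passed the filter only without replicate 3, and its test is not used. It was at 0.0 counts in the sham libraries, 0 to 4.96 CPM at day 2 and 4.80 to 11.3 CPM at day 14. Of the genes of these lists and the neighbours of the receptors, 12 were called in microglia at day 2 and 10 of them without replicate 3 too (Casp1 and Gna15 were not), and at day 14 all 5. Over all genes 31.4% were called at day 2 and 15.2% at day 14, and 27.5% and 14.4% without replicate 3.

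The inflammasome list had 8 of 8 genes tested in microglia, with 1 called higher and 2 lower at day 2 (median -0.37, against -0.05 for all genes), 3 of 8 where 31.4% of all genes were called. Pycard, the adaptor ASC that joins NLRP3 to caspase-1, rose: it stood at 395, 365, 265 and 308 CPM in sham, 761, 615, 780 and 895 CPM at day 2 and 428, 466, 628 and 447 CPM at day 14, with folds of 1.33 (adjusted p = 0.00157) and 1.03 (adjusted p = 0.0112). Casp1, which encodes caspase-1, was lower at day 2 (-0.99, adjusted p = 0.0347) and so was the pore-forming Gsdmd (-0.79, adjusted p = 0.012), so members moved in both directions. Without replicate 3 Casp1 was not called and the list stood at 1 higher and 1 lower (median -0.36, against 0.01 for all genes). Slc29a3, a nucleoside transporter of lysosomes, fell at day 2 (-0.99, adjusted p = 0.007), 1 of 2 tested in its list. Of 6 G proteins and potassium channels tested 1 was called at day 2, Gna15 (-0.79, adjusted p = 0.0494), and it was not called without replicate 3. None of the 4 genes of ATP release tested was called in edgeR at day 2, where 1 (Calhm2, -0.88) had an unadjusted p under 0.05 (adjusted p = 0.0618), or at day 14, where 0 did.

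In endothelial cells, where no receptor of the 5 had enough counts to be tested in young mice, Entpd1 rose at day 2: it stood at 211, 105, 71.1 and 191 CPM in sham, 396, 401, 311 and 240 CPM at day 2 and 146, 112, 215 and 109 CPM at day 14. The fold at day 2 was 1.32 (adjusted p = 0.0102; 13.3% of genes called), and day 14 against day 2 was -1.29 (adjusted p = 0.0106; 11.2% called). Alpl, an alkaline phosphatase of brain vessels, fell at day 2 (-1.38, adjusted p = 0.0211) and the nucleoside transporter Slc29a1 rose (1.82, adjusted p = 0.00409). In blood neutrophils at day 14 the adenosine receptor Adora3 (-3.12, adjusted p = 0.0176) and Casp4 (-1.47, adjusted p = 0.00779) were lower than in sham, with Casp4 at 201, 242, 133 and 149 CPM in sham and 70.9, 80.2 and 101 CPM at day 14. In blood dendritic cells Il1b, the inflammasome product interleukin-1 beta, was lower at day 14 (-2.67, adjusted p = 0.00401, 1.48% of genes called). That comparison had only 2 sham libraries with enough dendritic cells, with at most 34 each, against 3 day 14 libraries of 79 to 166. In aged MdC at day 2 Il1b (2.49, adjusted p = 0.0304) and Nlrp3 (2.73, adjusted p = 0.0309) were higher, 2 of 8 tested in the inflammasome list, where 2.56% of 8150 genes were called and 2.32% called higher.

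Genes with the most similar pattern over 27 means of 10 brain cell types by group were listed by Pearson correlation of log2(CPM + 1), as a description over points that share libraries. For P2ry12 they were Tmem119 (0.90), Ctc1 (0.87) and Itgb5 (0.85), and for P2ry13 Hnmt (0.83), Tanc2 (0.82) and Fcrls (0.82). For P2ry6 they were Ptpro (0.93), Capza2 (0.92) and Rnf150 (0.91), for P2rx4 Wdr41 (0.83) and Tep1 (0.82), and for P2rx7 Ptpro (0.85), P2ry6 (0.83) and Gm15655 (0.83). P2ry12 and P2ry13 correlated at 0.76. The 2 genes on each side of every receptor made 12 neighbours, of which 6 were tested in microglia. There, 3 were called at day 2, where 31.4% of all genes were, and 1 at day 14, where 15.2% were. The calls were the same without replicate 3. Fchsd2 near P2ry6 was lower in microglia at both times (-0.98, adjusted p = 0.0239, and -0.99, adjusted p = 0.0296), Ift81 near P2rx7 was lower at day 2 (-1.40, adjusted p = 0.0144) and Anapc5 near P2rx4 was higher at day 2 (0.97, adjusted p = 0.00607). Med12l, the gene opposite P2ry12, chosen after its values were seen, stood in microglia at 87.8, 76.4, 93.9 and 74.6 CPM in sham, 23.3, 47.1, 3.34 and 19.4 CPM at day 2 and 22.5, 20.7, 14.3 and 36.9 CPM at day 14, so every stroke library lay below every sham library there too.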

How the data were processed

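Brain and blood cells of mice were profiled by Drop-seq, per the labels. The authors deposited per library a table of counts per gene and cell, whose values are expected counts that need not be whole, and a table of cell annotations with cell types, sub-types and the percent of mitochondrial counts, as deposited. Per the submitters' processing notes the genome build was mm10 and Seurat was used; the aligner, the gene counting and its use of strand are not given in the sources used here. For each library and each annotated type the counts of its cells, 106977 in all, were added up, and CPM is relative to that sum; types with fewer than 20 cells in a library were left out. Per library, 0.320 to 4.81% of the nonzero values were whole. Library totals lay 2.59 to 14.1% below those of the same values rounded up, with the largest gap in young stroke day 2 replicate 3. What made the values not whole was not tested. An expected count of at least 0.5 was taken as detected. Sums were rounded to whole numbers and tested with edgeR 4.0.16 (glmQLFit, glmQLFTest, TMM scaling, filterByExpr, two-sided, R 4.3.3), fitted over all genes that passed the filter, with Benjamini-Hochberg adjustment over all genes tested and a threshold of 0.05. The 3 young brain groups were fitted together, as were the 3 blood groups, and the aged day 2 groups with the young day 2 groups. The SE given with an edgeR fold is the size of the fold divided by the square root of its F statistic. It is not an output of edgeR and can differ from what the p-value implies. DESeq2 1.42.0 was an alternative, and the others are in the closing section. The labels number the replicates of each group. Deviations from the group means correlated at 0.268 to 0.758 in all 4 same-numbered pairs of monocyte-derived cells at day 14 and day 2, so the number was taken as pairing there. Different-numbered pairs of that comparison ran from -0.641 to 0.528. Of these, 2 within a set of like mitochondrial share (0.471 and 0.528) were higher than the lowest same-numbered pairs. In no other comparison of the young groups were all pairs over 0.1 among the 4 types checked. Scripts were tested on simulated data. Doublets were not removed before the tests: Scrublet marked 60 of 43269 young brain cells (0.139%), too few to have worked, so leaving out the 6% of cells with the highest scores was added after seeing the data. So were the fits by mitochondrial share, with all libraries and with those of at least 100 cells. The receptors, gene lists and markers were chosen with earlier results of these data known. Named genes are the 5 receptors, the 2 highest and 2 lowest called genes of each purinergic list with at least 20 CPM, the 3 genes most similar to each receptor, and 2 neighbours on each side. Some genes that these rules or the marker lists include are not reported here by name. Intervals of single libraries are not given. A floor of 3 counts covers counting error only, also where a level is put at least so many fold above it. No columns of samples outside the series were found (0).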

Additional observations from a re-analysis of the deposited data

Results flagged for a closer look

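In groups of 4 libraries, the highest or lowest value was set against the spread of the others (Dixon's test). Of 64 groups of a receptor and cell type tested, 6 held a library that stood apart, where chance gives about 1 in 20. P2rx4 in microglia of young stroke day 14 was 186 CPM in replicate 3, against 95.1 to 110 CPM in the others; without that library the fold against sham was 0.90 (adjusted p = 0.0287). P2rx7 in microglia of young sham was 114 CPM in replicate 1, against 59.2 to 64.1 CPM. P2ry12 in border-associated macrophages of day 14 was 72.6 CPM in replicate 1, with the next at 11.8 CPM. P2ry13 in the same cells of day 14 was 0 CPM in replicate 4, against 38.7 to 45.6 CPM. P2ry6 in blood monocytes of stroke day 2 was 0 CPM in replicate 2 (213 cells), against 47.6 to 57.2 CPM. P2rx4 in brain T cells of sham was 144 CPM in replicate 3, resting on 3.86 expected counts in 70 cells, with the next at 21.7 CPM.

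Signal also appeared in cell types that no comparison used. P2ry13 in brain granulocytes stood at 81.0 CPM over all young libraries (52.1 expected counts in 1230 cells), at 7.37, 15.4, 46.7 and 49.1 CPM in sham, 259, 40.3, 123 and 130 CPM at day 2 and 47.2, 0, 163 and 88.1 CPM at day 14. Per 1000 counts of microglial markers in the same cells it was 269, against 18.4 in microglia. The part of microglial RNA in the granulocyte level was not tested. P2ry12 in the 68 blood cells coded UC stood at 734 CPM (23.8 expected counts). All 6 platelet markers were detected in those cells, with a sum of 17330 CPM, and P2Y12 is the known ADP receptor of platelets. The source of P2ry12 in the UC cells was not tested.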

How the results depend on the processing

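Over 672 folds of a receptor under another setting, 637 kept their direction and side of the threshold or were uncalled in both. Of the rest, 16 lost the call, 19 gained one and 0 turned from one called direction to the other. Among uncalled folds 40 differed in sign. Fits without single libraries are not among the 672. In 12 such fits each, P2ry12 in microglia at day 2 was called in 6, P2ry13 in 5 and P2rx4 at day 14 in 12. In monocyte-derived cells P2ry6 at day 2 was called in 6 and P2rx4 at day 14 in 10. Of the 5 receptors, microglia at day 2 had 2 called (P2ry12 and P2ry13, lower), and 1 with no filter on low counts or with only the compared groups, and 0 to 2 when single libraries were left out. In the libraries of mitochondrial share above 1% neither of these 2 was called, and the 1 receptor called there was P2rx4, higher. The libraries under 1% hold 1 sham library, so their calls are not counted. Microglia at day 14 had 1 called, and 3 in DESeq2, with only the compared groups or with at least 100 cells, 4 by library size, 2 with values rounded up, and 1 to 3 when single libraries were left out. Monocyte-derived cells at day 2 had 1, and 0 in DESeq2, by library size or with only the compared groups, and 0 to 1 without single libraries. At day 14 they had 1, and 0 in the set above 1% and 0 to 1 without single libraries (P2ry6 in place of P2rx4 without sham replicate 1). For day 14 against day 2 they had 0, and 2 in DESeq2 and 1 with the mitochondrial split as a covariate. Blood monocytes at day 14 against day 2 had 0, and 1 with no filter (P2ry12, -2.62, adjusted p = 0.0289). Aged microglia after stroke had 0, and 1 in DESeq2 and 0 to 1 without single libraries. The cause was not tested. Outside monocyte-derived cells at day 14 against day 2, replicate numbers were not taken as pairing the libraries in the 4 types checked: same-numbered microglial libraries correlated at -0.294 to 0.55, with 5 of 12 pairs over 0.1, and neutrophils and monocytes had 4 and 5 of 10. A replicate block gave 1 receptor called in microglia at day 2 (P2ry12 at -1.93, adjusted p = 0.0353), with P2ry13 no longer called (-1.13, adjusted p = 0.0551), and 1 in monocyte-derived cells for day 14 against day 2 (P2rx7 at 1.21, adjusted p = 0.0218); it changed no other call of a receptor. Over all genes, microglia at day 14 had 1546 called (1071 higher, 475 lower), 3425 by library size (670 higher, 2755 lower) with the median of all genes at -0.49, and 1986 in DESeq2 (1145 higher, 841 lower). At day 2 they had 1588 higher and 1594 lower, and 1273 and 2118 by library size (median -0.22), 1224 and 2186 in DESeq2 (median -0.28). Monocyte-derived cells had 457 higher and 85 lower at day 2, and 180 and 175 by library size. Neutrophils at day 14 had 106 higher and 188 lower, and 293 and 99 by library size (median 0.36). Levels as means over cells stayed within 1 SD in 71 of 72 cases (0.756 to 1.44 times). Sham monocyte-derived cells rest on 43 to 99 cells a library and border macrophages on 20 to 282.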
